A study of Mus musculus with 8 samples.

Results

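Ncald, Dclk3, Cacna1g, Kcnh7, Grin1 and Adora1 are 6 genes best known from neurons: a calcium sensor, a kinase, a calcium channel, a potassium channel, a glutamate receptor subunit and an adenosine receptor. Their loci were examined for trimethylation of lysine 27 of histone H3 (H3K27me3) in mouse jejunal crypt epithelium. The members were the regions of the authors' deposited table of changed regions that name 1 of these genes as overlapping or flanking, together with any other changed region within 100 kb, which was counted as part of the same run. There were 15 such regions among the 378 in the table, 11 that name a gene of the set and 4 that do not. The genes were chosen because they appear in this comparison, so they were selected on its log2 fold changes and FDR values, and that each has a changed region is the rule and not a result.

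H3K27me3 was profiled by chromatin immunoprecipitation and sequencing, after formaldehyde fixation and micrococcal nuclease digestion, in intestinal epithelial cells from the jejunum of female mice. The groups were 4 samples labelled Control/WT and 4 labelled Kdm6a/Kdm6b knockout (DKO), both taken at a time labelled acute, 7 days after ablation. The sources used here give neither the promoter driving the deletion nor the agent inducing it, nor whether the controls carried either. Values of single samples are not in the table, so the depth of the libraries, the spread between replicates and the epithelial identity of the cells could not be examined, and no fold change carries an error. It does not name the reference group: the words up and down are the table's own, and reading up as higher in DKO is the usual convention only. The Benjamini-Hochberg relation between its p-values and false discovery rates (FDR) implies 58963 regions tested, of which 0.641% were listed, 0.438% as up and 0.204% as down.

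H3K27me3 is deposited by Polycomb repressive complex 2 and marks genes held silent. In epithelia, many genes for neuronal receptors and channels carry it, most often over promoters rich in CpG dinucleotides. Kdm6a and Kdm6b encode the demethylases UTX and JMJD3, which remove the methyl groups from this residue.

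Promoter sequences are shown first, because whether a changed region covers the start of its gene differed between the 6 loci. RefSeq promoters (build GRCm38.p6, 250 bases before to 50 after a start) were matched for 3 of the 6 genes, Adora1, Grin1 and Kcnh7. Not matched were Ncald, Dclk3 and Cacna1g. All 4 matched promoters are on the minus strand and are written 5′ to 3′ along the gene, with every CpG in capitals. The first Adora1 promoter is chr1:134235408-134235707 and the second is chr1:134234807-134235106, both inside an up region. The Kcnh7 promoter, chr2:63184238-63184537, lies inside a down region. The Grin1 promoter, chr2:25319138-25319437, lies in no changed region.
Adora1, first promoter: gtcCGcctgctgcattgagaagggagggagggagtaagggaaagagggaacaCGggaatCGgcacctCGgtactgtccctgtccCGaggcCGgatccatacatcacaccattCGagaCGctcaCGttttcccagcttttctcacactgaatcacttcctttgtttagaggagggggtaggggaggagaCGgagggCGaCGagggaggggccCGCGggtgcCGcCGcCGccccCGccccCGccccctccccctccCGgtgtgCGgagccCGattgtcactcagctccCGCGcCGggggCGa
Adora1, second promoter: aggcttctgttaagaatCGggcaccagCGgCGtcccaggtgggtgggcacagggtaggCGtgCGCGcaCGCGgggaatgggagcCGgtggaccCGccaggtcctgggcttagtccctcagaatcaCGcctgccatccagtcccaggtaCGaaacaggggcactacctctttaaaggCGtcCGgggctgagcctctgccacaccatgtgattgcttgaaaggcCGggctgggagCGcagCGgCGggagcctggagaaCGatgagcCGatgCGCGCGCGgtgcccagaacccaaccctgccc
Kcnh7: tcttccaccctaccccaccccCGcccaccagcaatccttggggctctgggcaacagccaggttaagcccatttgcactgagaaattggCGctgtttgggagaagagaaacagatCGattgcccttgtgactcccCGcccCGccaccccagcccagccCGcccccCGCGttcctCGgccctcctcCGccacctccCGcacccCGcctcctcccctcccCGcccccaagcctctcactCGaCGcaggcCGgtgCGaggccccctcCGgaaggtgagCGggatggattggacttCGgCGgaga
Grin1: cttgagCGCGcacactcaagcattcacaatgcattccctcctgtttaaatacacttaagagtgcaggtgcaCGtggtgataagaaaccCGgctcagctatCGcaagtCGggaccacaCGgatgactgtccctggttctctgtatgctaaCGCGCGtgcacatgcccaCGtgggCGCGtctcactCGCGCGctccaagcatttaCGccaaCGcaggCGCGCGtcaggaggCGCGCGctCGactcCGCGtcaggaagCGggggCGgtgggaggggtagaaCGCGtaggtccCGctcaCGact
The Adora1 promoters held 26 and 24 CpGs in 300 bases, the Kcnh7 promoter 21 and the Grin1 promoter 33. Over all 32851 RefSeq promoters, of 27025 gene symbols and not limited to protein-coding genes, the median was 7 CpGs. The Grin1 count was above that of 91.4% of them, the first Adora1 count above 83.1%, the second above 80.0% and the Kcnh7 count above 75.2%. The promoter in an up region, the one in a down region and the one outside therefore all lay well above the median. GC content was 66.0% in both Adora1 promoters, 67.7% at Kcnh7 and 60.7% at Grin1, against a median of 52.7%. The half-sites CAGCACC and GGACAG, which together form the core of the element bound by the neuronal gene repressor REST, were searched on both strands. CAGCACC was in none of the 4 promoters and in 7.14% of all promoters, and GGACAG was in the first Adora1 and the Grin1 promoter and in 22.2% of all promoters.

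At 5 of the 6 loci every changed region was up, and at Kcnh7 every one was down. Among the 15 regions 12 were up and 3 down, and of the 11 that name a gene of the set 10 were up. Of all 378 listed regions 258 were up and 120 down, so most regions of the whole table were also up. Of all tested regions 0.641% were listed, 0.438% as up and 0.204% as down. At Dclk3, Cacna1g, Kcnh7 and Adora1 some regions abut, nearly abut or overlap each other, so the 15 are not 15 separate changes. Log2 fold changes in the authors' deposited table ran from 0.83 to 2.15 over the 12 up regions, with a median of 1.03, and the median of all 258 up regions was 0.96. The 3 down regions had a median of -0.82 in the authors' deposited table, against -0.88 over all 120 down regions. Both medians lay close to those of all regions in the same direction, and the 3 largest values of the set were at Ncald and Dclk3. None of the 15 regions held a window counted in the opposite direction, as was true of all but 2 of the 378 regions.

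**Figure D1:**
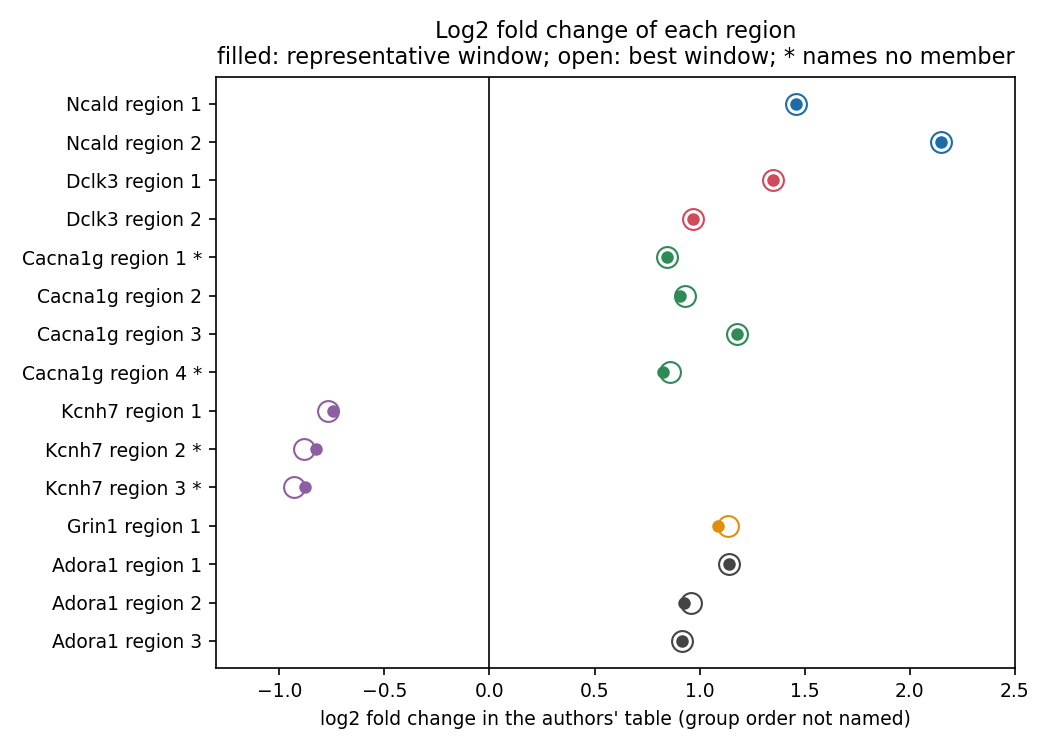
Log2 fold change of the 15 regions, from the authors' deposited table, on the horizontal axis, with regions numbered along the chromosome within each locus and coloured by locus. Filled points are the representative window and open points the best window of a region; Ncald region 2 stands at 2.15, the 3 Kcnh7 regions lie between -0.88 and -0.75 by the representative window, and all others lie between 0.83 and 1.46.

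Ncald encodes neurocalcin delta, a myristoylated calcium sensor with EF hands that is abundant in neurons. Both of its up regions were narrow islands, each 6.0 kb wide, and every tested window in them was counted as up, 24 of 24 at chromosome 15, 37428001 to 37434000, and 25 of 25 at 37455501 to 37461500. The second region ranked first of all 258 up regions both in size of change and in p-value, and the first ranked number 4 in size. The authors' deposited table gives them log2 fold changes of 2.15 and 1.46. Neither region lay near the outermost start of the gene. The RefSeq body of Ncald spans 426 kb, from 37366175 to 37792519 on the minus strand, and the regions began 331 and 359 kb downstream of its start, toward the end of the gene. The authors' deposited table annotates the stronger one as promoter and exon of Ncald. RefSeq lists 33 transcripts for the gene, whose separate starts were not used here. The weaker region is annotated as an Ncald exon and also covers the promoter and exons of the noncoding gene Gm15941 and exons of 4930447A16Rik on the opposite strand, so its change cannot be given to 1 gene.

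The stretch of 21.5 kb between the Ncald regions held few tested windows of 2.0 kb. Tested windows are numbered along the chromosomes, and those that represent the 2 Ncald regions were 8 steps apart. At most 7 windows of 2.0 kb can therefore have been tested between them, where 40 positions fit in the gap alone. Windows of 1.0 kb, which the table numbers separately, are not limited by this count. The sources used here do not say by which rule windows were kept.

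Dclk3 encodes a member of the doublecortin-like kinase family, serine/threonine kinases named for doublecortin, which binds microtubules. Here a region covered the start of the gene, and a second lay inside it. The first region, at chromosome 9, 111420001 to 111447000, ran from 19.1 kb before the RefSeq start (111439081, plus strand) to 7.92 kb inside the gene, and the second abutted it and continued to 11.9 kb. Log2 fold changes in the authors' deposited table were 1.35 (FDR 3.74e-05) and 0.97 (FDR 0.0074). In the wide region 65 of 153 windows were counted as up, and in the second, 4.0 kb wide and intronic, 15 of 15 were. Their representative windows were 2 index steps apart. With the window spacing inferred from the table, and all untested positions allowed for, the one behind the value of 1.35 began at 111441501 or later, at least 2.42 kb downstream of the gene start. On that spacing, the value given for the wide region was read inside Dclk3 and not over its start.

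**Figure D2:**
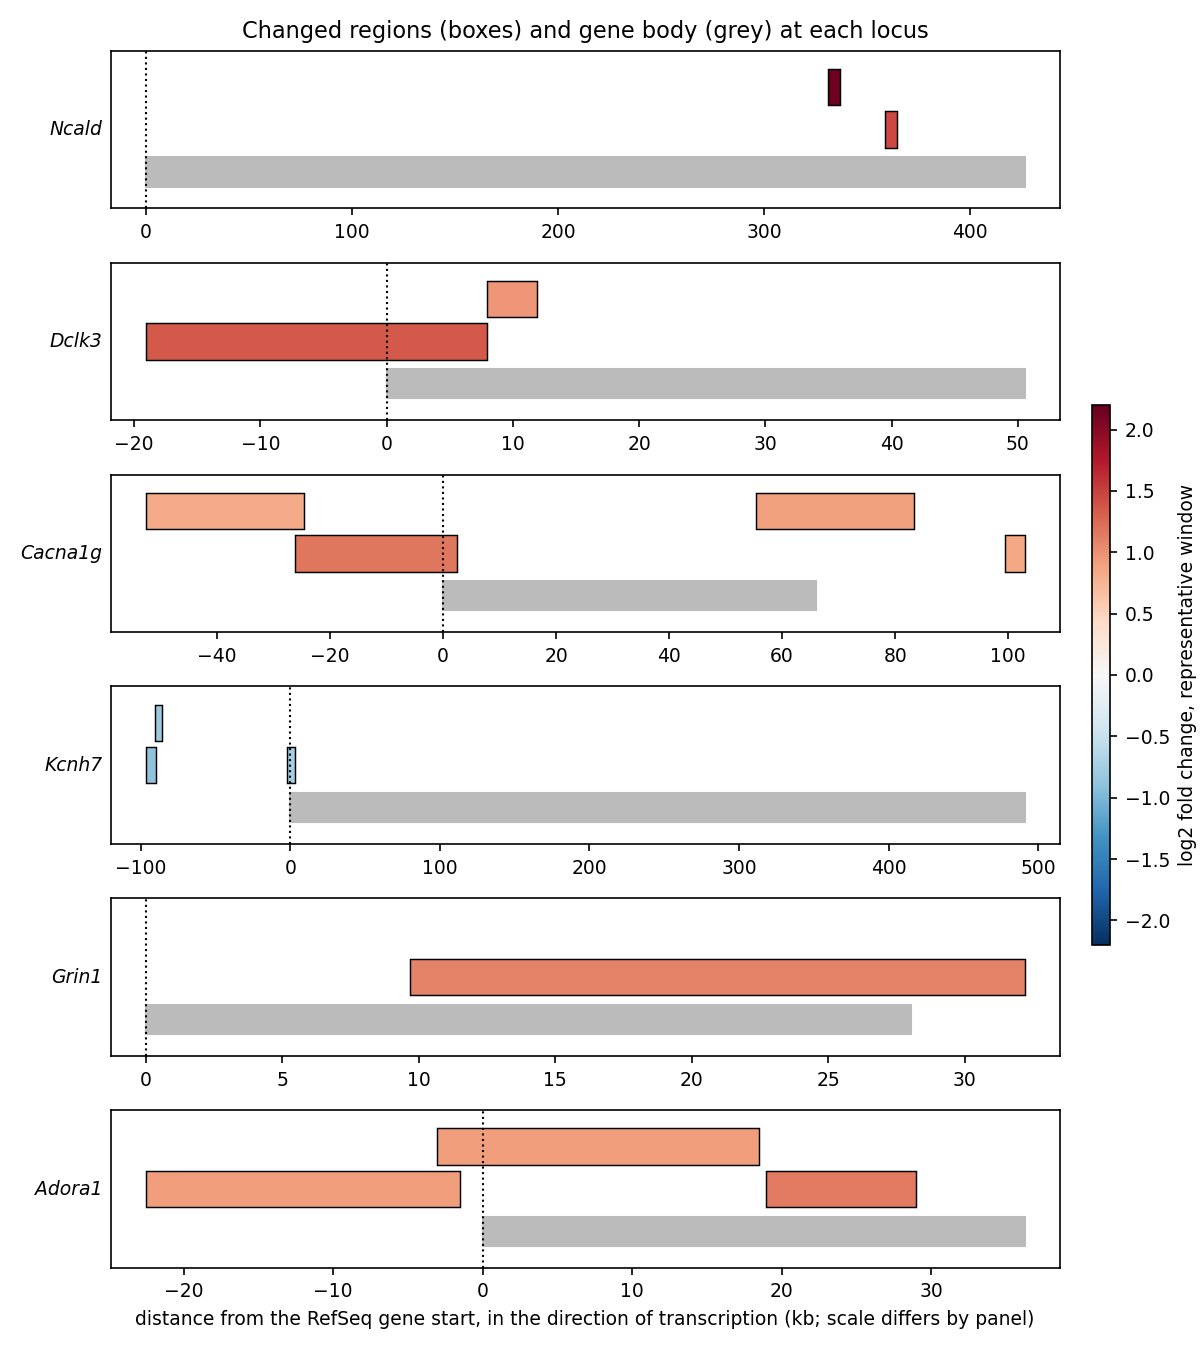
Position of each changed region (boxes, coloured by the log2 fold change of the representative window in the authors' deposited table) relative to the RefSeq start of its gene (dotted line at 0) in the direction of transcription, in kb, with the gene body in grey and boxes at 2 heights only to separate neighbours. A region covers the gene start at Dclk3, Cacna1g, Kcnh7 and Adora1, while the Ncald regions lie 331 kb or more downstream and the Grin1 region 9.69 kb downstream.

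Cacna1g encodes the pore of a T-type calcium channel, which opens near resting voltage and supports burst firing. Its run was the longest of the 6, with 4 up regions over 155.5 kb. From low to high coordinate on chromosome 11, the authors' deposited table lists them with log2 fold changes of 0.84, 0.91, 1.18 and 0.83. Of these, the second and the third name Cacna1g, and they overlap its ends and its neighbours. Which of their windows changed is not given, so a change over the gene itself is not shown. The second, 94391001 to 94419000 (67 of 151 windows up, FDR 0.0196), took in 10.6 kb of the downstream end of the gene, whose RefSeq body runs from 94408391 to 94474400 on the minus strand, and also the promoter of Abcc3. The third, 94472001 to 94500500 (49 of 161 windows up, FDR 5.80e-04 in the authors' deposited table), held the Cacna1g start but only 2.40 kb of the gene, and all of Spata20 and Epn3.

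On the inferred window spacing, the strongest value of this run was read away from Cacna1g. The representative windows of regions 3 and 4 of this run were 12 index steps apart, which places the window behind 1.18 between 94487501 and 94500500, at least 13.1 kb upstream of the Cacna1g start. Epn3, which encodes the endocytic adaptor epsin 3, lies from 94489599 to 94499974, within that stretch. Most of the Cacna1g body lies in the 53.0 kb between the second and the third region, where no region is listed. On the same spacing, at least 64 windows of 2.0 kb were tested there that belong to neither region. The outer regions of the run name no gene of the set. One, 3.5 kb wide with 6 of 6 windows up, covers exons of Abcc3, which encodes a transporter of organic anions and bile salt conjugates. The other, with 17 of 155 windows up, covers 25.7 kb of the 31.0 kb RefSeq body of Mycbpap, without its RefSeq start, and the start of Epn3. The authors' annotation nevertheless calls this last region promoter and exon of Mycbpap. In the authors' deposited table these outer regions have FDR values of 0.0359 and 0.0430.

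Kcnh7 encodes a voltage-gated potassium channel of the ether-a-go-go related (ERG) family. It was the gene of the set with a down region, one of 5.5 kb centred close to its start, chromosome 2, 63181001 to 63186500, from 2.21 kb before the RefSeq start (63184287, minus strand) to 3.29 kb inside. All 24 windows were counted as down. The authors' deposited table gives -0.75 on the log2 scale at an FDR of 0.0466, where the largest FDR listed is 0.0498. By size it ranked 119 of 120 down regions, and only 0.67% of the gene body of 491 kb was covered.

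The other Kcnh7 regions lay 85.7 and 89.7 kb upstream of the start, and the authors' deposited table names no gene for either. They overlapped each other by 0.5 kb, at 63270001 to 63274500 and 63274001 to 63281000. Windows counted as down were 15 of 15 and 26 of 32, and the authors' deposited table gives log2 fold changes of -0.82 and -0.88. Both values were further from 0 than the one at the promoter, and in the authors' deposited table they also have lower FDR values, 0.0177 and 0.0059. The differences among these regions were not tested, for want of values per sample. As at Ncald, few windows of 2.0 kb were tested in between, and those of 1.0 kb are not limited by the count. The gap of 83.5 kb to the promoter region has 164 positions for the wider windows, and at most 7 can have been tested. These regions are the members nearest to the limit of 100 kb, at 87.5 kb for the farther one, and the nearest changed region left out of any run was 809.5 kb away, at the Grin1 locus.

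**Figure D3:**
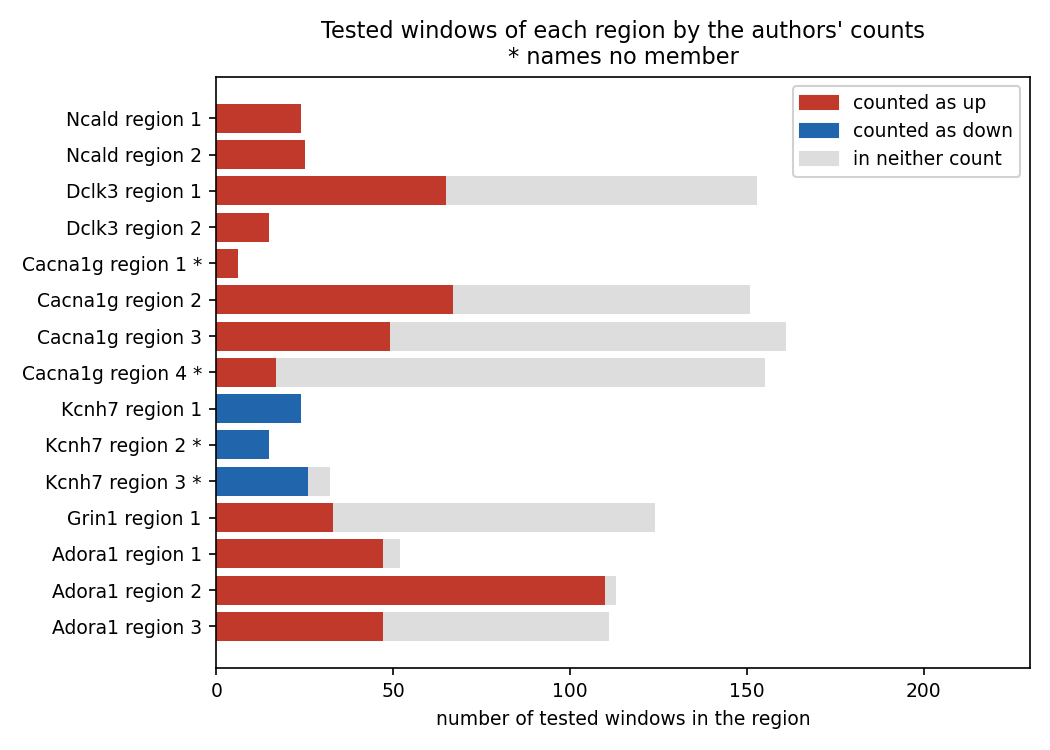
Number of tested windows in each of the 15 regions (horizontal axis) divided by the counts of the authors' deposited table into windows counted as up, counted as down and in neither count. Every window is counted at both Ncald regions, while 33 of 124 are at Grin1 and 17 of 155 at Cacna1g region 4; a window in neither count need not be unchanged, as the rule is not given.

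Grin1 encodes the obligatory subunit of the NMDA type of glutamate receptor. Its single up region, chromosome 2, 25287001 to 25309500, covered the downstream 18.3 kb of the gene, which is 65.4% of the RefSeq body (25291177 to 25319187, minus strand), and stopped 9.69 kb short of its start. The CpG-rich promoter printed above therefore lay 9.64 kb outside the changed region. The authors' deposited table nevertheless annotates the region as Grin1 promoter and exon. RefSeq lists 8 Grin1 transcripts, whose separate starts were not used here. The authors' deposited table gives a log2 fold change of 1.09 (best window 1.14) at FDR 5.12e-04, with 33 of 124 windows counted as up. It also held all of Grin1os, a noncoding gene antisense to Grin1, and all of Lrrc26 and Tmem210. Lrrc26, which encodes an auxiliary subunit of BK potassium channels in secretory epithelia, ends within the last bases of Grin1, and which of these genes the changed windows cover cannot be told from the table.

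Adora1 encodes the adenosine A1 receptor, which couples to inhibitory G proteins. Its 3 up regions from 134206501 to 134258000 on chromosome 1 covered 51.0 of 51.5 kb between them, and no other gene is named in them. The middle region, 134217001 to 134238500, held both printed promoters and 18.5 kb of the gene body of 36.2 kb, with 110 of 113 windows up. For it the authors' deposited table lists 0.93 on the log2 scale (FDR 0.0104). The region inside the gene, 10.0 kb wide and annotated as intronic, had the larger value in the authors' deposited table, 1.14 (FDR 2.65e-04), with 47 of 52 windows up. Upstream of the gene the third region began 1.54 kb before the start and reached 22.5 kb, with 47 of 111 windows up. The authors' deposited table lists it at 0.92 on the log2 scale (FDR 0.0167). The 3 values were read in different windows, and their differences could not be tested.

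The loci differed in the share of tested windows counted as changed. On the inferred spacing neighbouring windows overlap, so these counts are not numbers of separate observations. They are over whole runs, with the regions that name no gene of the set. Windows counted as changed were 49 of 49 over the Ncald run, 65 of 71 at Kcnh7 and 204 of 276 at Adora1. Shares were lower at Dclk3, 80 of 168, at Cacna1g, 139 of 473, and at Grin1, 33 of 124. The 4 regions with the lowest shares, 2 at Cacna1g, 1 at Grin1 and 1 upstream of Adora1, were all at least 21 kb wide, and the 6 regions with every window counted were at most 6.0 kb wide. Width alone did not order the shares, since the middle Adora1 region, 21.5 kb wide, had 110 of 113 windows up. By region, the median share was 67.4% over the 12 up regions, against 72.2% over all 258 up regions. Over the 3 down regions it was 100%, against 64.3% over all 120 down regions. Median width was 21.25 kb over the 12 up regions, against 17.25 kb over all up regions, and 5.5 kb over the 3 down regions, against 6.0 kb over all down regions.

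**Figure D4:**
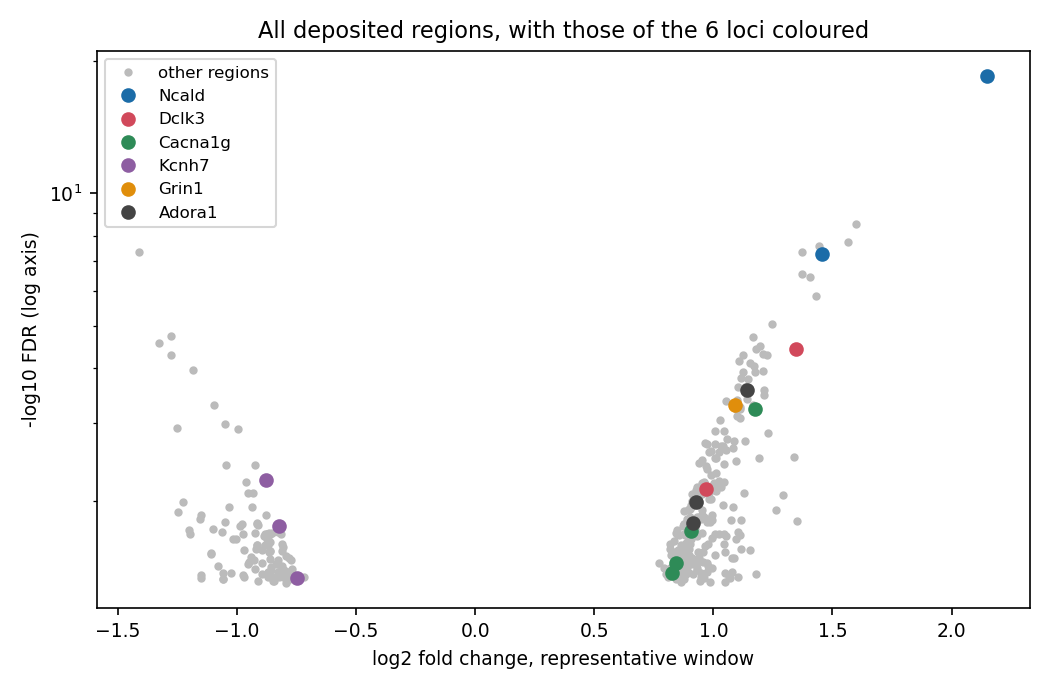
Log2 fold change of the representative window (horizontal axis) and -log10 FDR (vertical axis, log scale) of all 378 regions in the authors' deposited table, with the 15 regions of the 6 loci coloured by locus and the rest in grey. Ncald region 2 is the highest point, at an FDR of 3.43e-19, and the Kcnh7 promoter region is among the lowest points on the down side.

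Relatives of the 6 genes were then looked up. Lists of neuronal calcium sensors, doublecortin family genes, ionotropic glutamate receptors, voltage-gated calcium channels, ERG-type and related potassium channels, purine receptors, and GABA and glycine receptors held 112 genes, and 1 of the 106 outside the set was overlapped by a changed region. For comparison, an up region overlapped 0.799% of 21900 protein-coding RefSeq genes and a down region 0.361%, so the count among relatives is near the background and is no result about them. The relative was P2ry6, a receptor for the nucleotide UDP, with an intronic up region of 2.5 kb at chromosome 7, 100951501 to 100954000. The authors' deposited table lists it at 0.98 on the log2 scale (FDR 0.0044), with 7 of 8 windows up. None of the table's regions overlapped Grin2a, Grin2b or any other ionotropic glutamate receptor gene of the 18 listed apart from Grin1, any of the 26 calcium channel genes apart from Cacna1g, or any of the 8 potassium channel genes apart from Kcnh7. None of 18 neuron and glia markers and none of 19 enteroendocrine markers was overlapped either, counts too small to differ from that background. Absence from the table means only that no region there passed the FDR limit.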

How the data were processed

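Per the submitters' processing notes the tools were Bowtie 0.12.7, SICER 1.0.3, edgeR (no version given), SAMtools 1.11, Picard 1.141 and FastQC 0.10.1, on mm10. The sources used here give neither order nor settings. The deposited table has the column names of csaw, which combines tests of windows into regions. Its log2 fold changes, p-values and FDR values, and its counts of windows, are the authors' and were used as deposited. Columns of per-sample values number 0, so nothing was refitted.

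Gene fields hold unquoted commas (17 to 21 cells per row for 17 columns). An entry with letters last was taken as an overlap (P promoter, E exon, I intron), one with a distance last as a flanking gene. All 15 regions and every gene of the related lists found in the table are named. Members and lists were chosen with earlier results of these data known. FDR values were reproduced with 58963 tests to a relative difference of 5.8e-15.

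The window index runs through the genome in 2 passes. Windows of 2.0 kb every 500 bp, then 1.0 kb every 250 bp, were inferred: of 283 neighbouring pairs of first-pass regions 0 had more index steps than positions, and of 362 regions at least 2 kb wide 0 had more windows than positions. All 15 regions had first-pass representative windows. Gene bodies and promoters are RefSeq (GRCm38.p6), strands the table's. Scripts (Python 3.11.15, numpy 2.4.6) were tested on simulated data. Alternatives were stricter limits, other run distances, annotation fields, the best window, another share of windows and shorter promoter windows.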

Additional observations from a re-analysis of the deposited data

How the results depend on the processing

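Of the 15 regions at the 6 loci, 8 had an FDR of 0.01 or lower and in 6 the authors' deposited table gives a change of at least 1 on the log2 scale. Both counts fell by construction under a stricter limit. Counting only regions that name a gene of the set left 11. Joining runs over 500 kb left 15, which could not change, since the nearest region left out of any run was 809.5 kb away. All 6 genes had an overlapping region, and 5 did at FDR 0.01, without Kcnh7. With the best window in place of the representative one, 7 of the 11 log2 fold changes at regions naming a gene stayed the same to 2 decimals and 4 moved, by at most 0.045. Over all 15 regions 7 moved, by at most 0.058, at Kcnh7 region 2, and 0 changed sign. In the last 150 bases of the printed promoters the CpG counts were 17 and 12 at Adora1, 25 at Grin1 and 16 at Kcnh7. These were above 85.9% and 72.8% of all promoters over the same bases at Adora1, 97.4% at Grin1 and 83.55% at Kcnh7. Kcnh7 thus stood above the second Adora1 promoter here, and below it over 300 bases. No paired analysis was possible because the table holds no columns of single samples, and for the same reason no replicate could be left out. Depth is unknown, so whether it limits any of these regions could not be examined. Bounds on window positions rest on the inferred spacing.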
